A study of Mus musculus with 6 samples.

Results

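The genes described here run protein folding in the endoplasmic reticulum (ER) and the stress response that adjusts it, in the submandibular gland of NOD mice with and without Myd88. They were taken from a fixed list of 35 gene names, of which 33 were measured, out of 19505 named genes. Pdia4 and Manf were not analysed here. Gene expression was measured in total RNA of the whole gland from 6 female mice aged 10 weeks on a NOD.B6 background, 3 with wild-type Myd88 (NOD.B6-Myd88+/+) and 3 homozygous for its targeted allele (NOD.B6-Myd88−/−). No treatment is named in the labels, and each mouse gave 1 array. Values are log2 expression values, each group has n = 3 mice, and every difference is Myd88−/− minus Myd88+/+. Myd88 is the adaptor of most Toll-like receptors and of the interleukin-1 receptor family, and NOD mice develop autoimmune infiltrates in this gland.

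A salivary gland makes and exports large amounts of protein, and all of it enters the ER, where chaperones fold it, isomerases set its disulfide bonds and misfolded chains are sent back to the cytosol for degradation. When unfolded chains build up, the sensors IRE1 (gene Ern1), PERK (Eif2ak3) and ATF6 (Atf6) start the unfolded protein response. ATF6 and XBP1, the transcription factor that IRE1 makes by splicing, raise chaperones and degradation factors, whereas PERK slows translation and lets ATF4 and its target CHOP (Ddit3) act. Splicing, cleavage and phosphorylation of these sensors are not read by an expression array, so the values below are transcript levels alone.

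ATF6 and XBP1 act through short promoter elements, and these were searched for in the promoter windows of the listed genes. The 35 genes were listed for roles in ER folding and its stress response, so their shares describe the list and test nothing. RefSeq promoter windows of 300 bases (250 before to 50 after the start, build GRCm38.p6) were found for 30 of the 35 genes. The ER stress response element, ERSE, searched on both strands as CCAAT and CCACG with any 9 bases between them, stood in the windows of 8 of these 30 genes, against 0.137% of the 27025 genes in the table. ERSE-II, searched on both strands as ATTGG and CCACG with any 1 base between them, stood in 2 of 30 (Herpud1 and Dnajb11), against 0.0444% of genes. The XBP1 element UPRE, searched as TGACGTGG on both strands, stood in 1 of 30 (Sec24d), against 0.714% of genes, and the ATF4 composite element, searched as TGATGNAAT on both strands, stood in 0 of 30, against 1.08% of genes. No match in these genes overlapped another. A match is a description of the letters and not evidence of binding. The stretches below run 5′ to 3′ in the direction in which the element reads forward, with 15 bases on either side. Capitals mark the fixed letters of ERSE in the first 9, of ERSE-II in Herpud1 and of UPRE in Sec24d, and the strand is the one printed.
Hspa5, chr2:34772010-34772058 (+): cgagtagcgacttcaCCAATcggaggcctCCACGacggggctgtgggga
Hsp90b1, upstream element, chr10:86705623-86705671 (−): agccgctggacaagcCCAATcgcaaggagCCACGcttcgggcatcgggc
Hsp90b1, element nearer the start, chr10:86705518-86705566 (+): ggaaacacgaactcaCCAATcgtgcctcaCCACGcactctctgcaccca
Calr, chr8:84847060-84847108 (+): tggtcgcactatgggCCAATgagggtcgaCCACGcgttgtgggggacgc
Canx, chr11:50325785-50325833 (−): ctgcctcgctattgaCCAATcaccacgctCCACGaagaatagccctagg
Dnajc3, chr14:118937812-118937860 (+): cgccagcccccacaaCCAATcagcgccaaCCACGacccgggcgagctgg
Creld2, chr15:88819505-88819553 (−): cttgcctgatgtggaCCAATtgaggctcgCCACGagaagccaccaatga
Pdia6, chr12:17266476-17266524 (+): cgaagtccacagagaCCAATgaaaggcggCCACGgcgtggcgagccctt
Syvn1, chr19:6046517-6046565 (+): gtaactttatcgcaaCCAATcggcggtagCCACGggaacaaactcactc
Herpud1, chr8:94386362-94386402 (+): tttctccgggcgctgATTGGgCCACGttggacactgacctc
Sec24d, chr3:123267455-123267492 (+): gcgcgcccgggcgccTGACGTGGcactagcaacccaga

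The targeted gene was checked first. Myd88 read 7.81, 7.86 and 7.53 in the Myd88+/+ glands, replicates 1 to 3 in order, and 7.33, 6.80 and 7.47 in the Myd88−/− glands. The groups did not overlap, though the third replicates lay close, and the difference was −0.53 with a standard error (SE) of 0.21 (limma adjusted p = 0.462). The sources used here do not say whether its probe set lies in the deleted part, so it is a weak check of the labels.

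By point estimate, transcripts of the ER folding machinery differed by less than 2-fold between genotypes in every gene measured. The largest of the 33 differences was −0.54 on the log2 scale, a 1.45-fold lower level, and 0 of the 33 passed limma's test at an adjusted p under 0.05, as did 0 of the 22206 probe sets tested (0%). The smallest adjusted p among the 33 was 0.45. Before adjustment, 3 of the 33 passed a p under 0.05 in limma, 2 higher and 1 lower, against 10.1% of all probe sets (4.5% higher, 5.55% lower), so this share of 9.09% lay near the background. None was at least 2-fold apart at that p (0 of 33, against 0.797% of all probe sets). The 3 were the stress sensor gene Eif2ak3, the chaperone gene Hyou1 and the vesicle coat gene Sec24d. Without Myd88+/+ replicate 3 none of the 33 passed, at 8.46% of all probe sets. Without Myd88−/− replicate 1 Sec24d alone did, at 7.58%. In whole-gland RNA, fewer cells of a type and less RNA per cell cannot be told apart.

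The precision of these differences bounds how far the genotypes can be apart. The 95% interval of the difference, from limma's SE, lay within 2-fold in either direction for 32 of the 33 genes and within 1.5-fold for 15 of them, against 88.2% and 35.4% of all probe sets. The exception to the first was Sec24d, whose interval ran from −1.01 to −0.07. These intervals are for 1 gene at a time and are not adjusted for the number of genes. Of the 33 genes, 16 were higher and 17 lower in Myd88−/− glands (52.5% and 47.5% of all probe sets). Their median difference was −0.041, against 0.016 over all probe sets. Among the 5552 brightest probe sets, which held 30 of the 33 genes, 64.7% were lower and the median difference was −0.095. The split of the 33 followed the scaling of the arrays. It was 21 higher and 12 lower after quantile normalization (median 0.046). Cyclic loess gave 19 and 14 (0.026) and median centring 12 and 21 (−0.063). With 1 mouse left out the median ran from −0.093, without Myd88−/− replicate 2, to 0.036, without Myd88+/+ replicate 1.

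**Figure D1:**
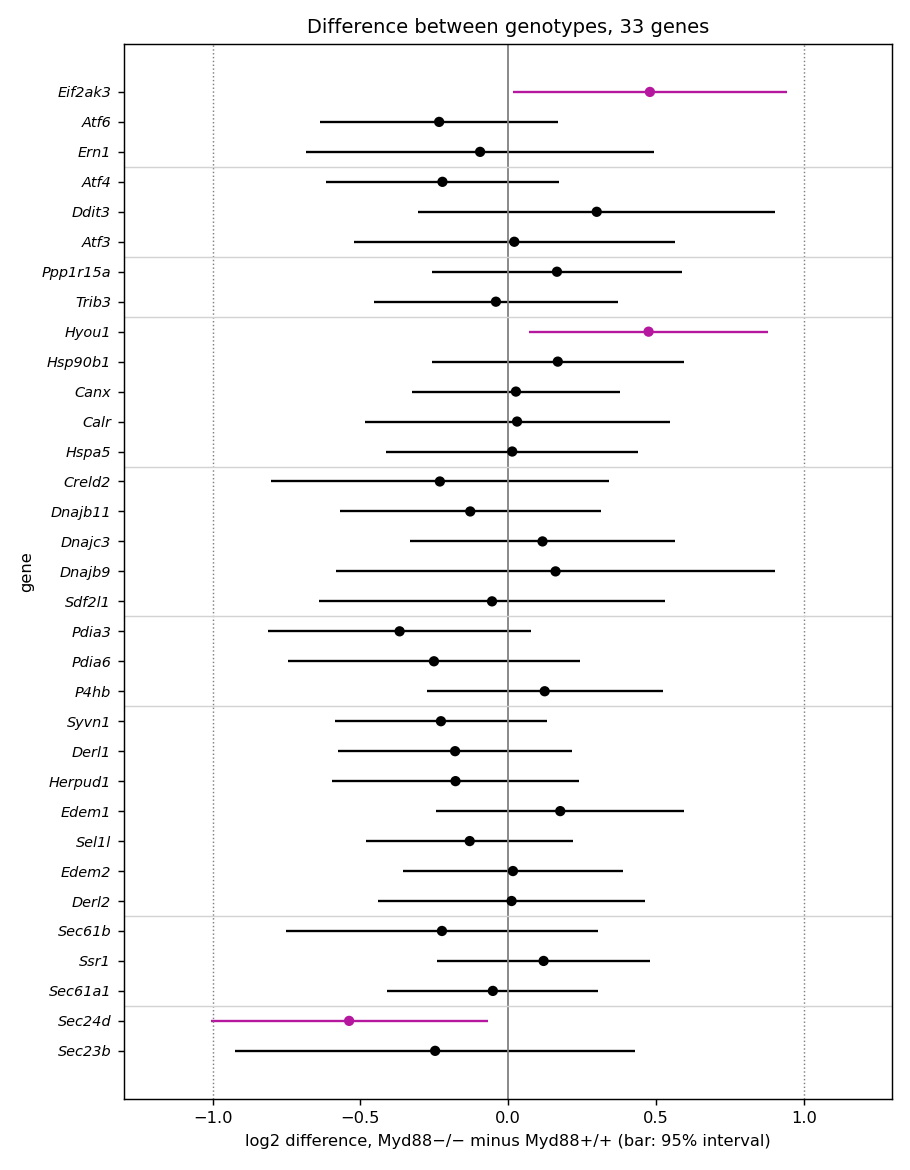
Log2 difference between genotypes (x axis, Myd88−/− minus Myd88+/+) for each of the 33 genes (y axis, grouped by role), with points for the difference and bars for its 95% interval from limma. Dotted lines mark 2-fold; the 3 coloured genes, Eif2ak3, Hyou1 and Sec24d, had an unadjusted p under 0.05, and none passed after adjustment.

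Among the 3 sensors, the PERK gene Eif2ak3 was higher in Myd88−/− glands before adjustment and the other two were not. Its wild-type values were 13.14, 12.87 and 12.94, and its Myd88−/− values 13.62, 13.70 and 13.08. Myd88−/− replicates 1 and 2 lay above all wild-type glands, while replicate 3 lay inside their range, so the groups overlapped. The difference was 0.48 with an SE of 0.21, a 1.39-fold higher level (limma adjusted p = 0.484, from 0.352 to 0.711 over the alternatives). It ran from 0.36 without Myd88−/− replicate 2 to 0.67 without Myd88−/− replicate 3. The unadjusted p stayed under 0.05 when Myd88−/− replicate 3 or Myd88+/+ replicate 1 was left out. It missed that level without any of the other 4 mice and after median centring. It also missed that level without moderation of the variances and with the replicate number as a block.

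Ern1, which encodes the kinase and nuclease IRE1, read 10.47, 10.34 and 9.60 in the wild-type glands and 10.15, 10.28 and 9.70 in the Myd88−/− glands. Replicate 3 of each genotype was the low one, and the groups overlapped. The difference was −0.09 with an SE of 0.26, and its sign turned under cyclic loess (0.015) and quantile normalization (0.033). Atf6, the membrane-bound factor released by cleavage, read 11.93, 11.97 and 12.34 in Myd88+/+ and 11.84, 11.75 and 11.94 in Myd88−/− glands. The highest Myd88−/− value lay between the 2 lowest wild-type ones, and the difference was −0.23 with an SE of 0.18 (limma adjusted p = 0.69).

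**Figure D2:**
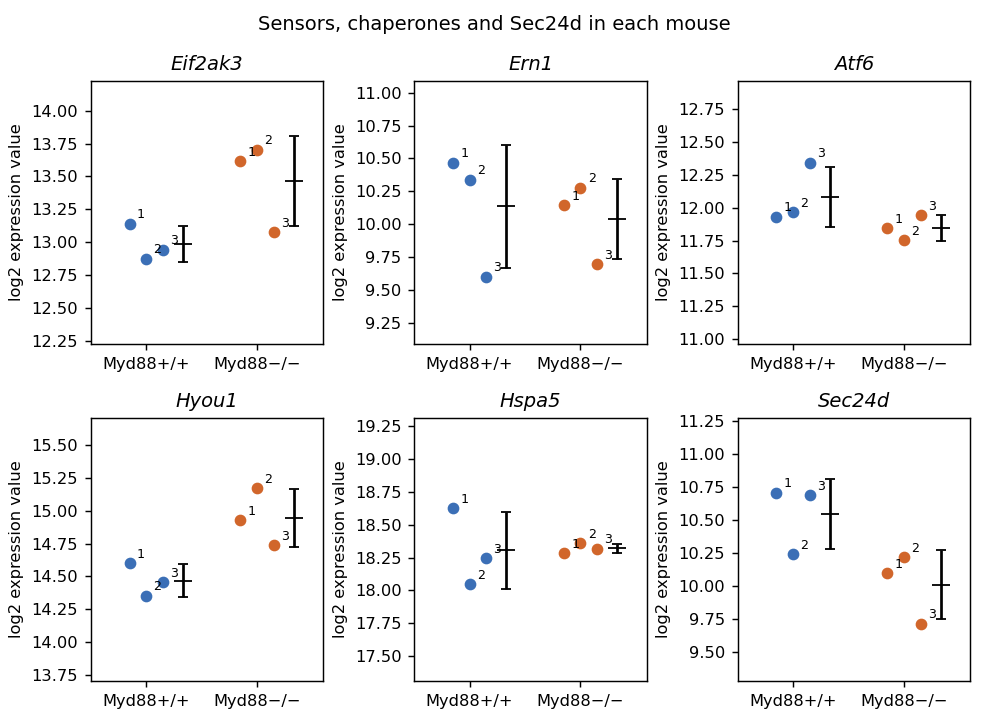
Log2 expression value (y axis, 2 log2 units in each panel) of Eif2ak3, Ern1, Atf6, Hyou1, Hspa5 and Sec24d in each mouse of both genotypes (x axis), numbered by replicate, with the mean and SD of 3 mice in black. The groups are apart in Hyou1 and, barely, in Sec24d, and overlap in the other 4 genes.

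The transcription factors of the PERK branch did not differ beyond their spread. Atf4, the factor whose translation PERK favours, read 13.57, 13.35 and 13.23 in Myd88+/+ and 13.10, 13.06 and 13.33 in Myd88−/− glands. Myd88−/− replicates 1 and 2, the mice with the most Eif2ak3, had the least Atf4, a match that was read off the values and not tested. The difference was −0.22 with an SE of 0.17 (limma adjusted p = 0.695). Ddit3, which encodes CHOP, a factor of stress-induced cell death, read 8.35, 9.06 and 8.93 against 8.75, 8.92 and 9.58. Its lowest value was a wild-type one and its highest a Myd88−/− one, with the other 4 mice between 8.75 and 9.06. The difference was 0.30 with an SE of 0.27 (limma adjusted p = 0.734), and 0.05 without Myd88−/− replicate 3. A dimmer second probe set of Ddit3 had a difference of 0.04 with an SE of 0.18.

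Atf3, an early stress-induced factor, read 6.99, 6.14 and 6.77 in Myd88+/+ and 6.90, 6.57 and 6.49 in Myd88−/− glands, a difference of 0.02 with an SE of 0.24 (−0.0008 after median centring). The values of the genotypes interleaved. Of the feedback genes, Trib3, a pseudokinase induced by CHOP, ran from 6.25 to 6.69 over the 6 mice with a difference of −0.04. Ppp1r15a, the GADD34 subunit that reverses the block of translation, ran from 3.21 to 3.75, below the background control median of 5.55 on every array, so its level was not measured above background. It was the one gene of the 33 below that median, and 32 of 33 lay above it on all arrays.

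The chaperones and lectins of the lumen and membrane were all higher in Myd88−/− glands by point estimate (5 of 5, against 52.5% of all probe sets). Their median difference was 0.03, and Hyou1 alone among them passed before adjustment. After median centring Hspa5 turned to −0.0079. With 1 mouse left out, the sign turned in 3 fits for Hspa5, 3 for Calr and 1 for Canx. Hyou1, the large Hsp70-like chaperone that also exchanges the nucleotide of BiP, read 14.60, 14.35 and 14.45 in Myd88+/+ and 14.93, 15.17 and 14.74 in Myd88−/− glands. Every Myd88−/− value lay above every wild-type value. The difference was 0.47 with an SE of 0.18, a 1.39-fold higher level with a 95% interval from 0.07 to 0.88 (limma adjusted p = 0.45, from 0.336 to 0.682 over the alternatives). It ran from 0.36 without Myd88−/− replicate 2 to 0.58 without Myd88−/− replicate 3. Of the 6 fits with 1 mouse left out, 2 kept an unadjusted p under 0.05, those lacking Myd88+/+ replicate 1 or Myd88−/− replicate 3. Hyou1 lies on chromosome 9, as Myd88 does, with 717 protein-coding genes of assembly GRCm38.p6 between them.

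Hspa5, which encodes BiP, the main Hsp70 of the ER and the usual readout of the unfolded protein response, read 18.62, 18.05 and 18.25 in Myd88+/+ and 18.28, 18.36 and 18.32 in Myd88−/− glands. All 3 Myd88−/− values fell within the wild-type range. The difference was 0.01 with an SE of 0.19, and its 95% interval ran from −0.41 to 0.44, within 1.5-fold in either direction. The wild-type spread (SD 0.29) was wider than the Myd88−/− spread (SD 0.04), and Hsp90b1, the Hsp90 of the ER, had the same SDs, 0.29 and 0.04. Hsp90b1 read 17.03, 16.75 and 17.34 against 17.17, 17.21 and 17.24, a difference of 0.17 with an SE of 0.19. Myd88+/+ replicate 2 was the lowest of the 6 mice in both genes.

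Calr and Canx, the soluble and membrane-bound lectins that hold glycoproteins during folding, had differences of 0.03 each. Canx was the steadiest of the 33 across all mice, from 14.19 to 14.34. Calr ran from 17.57 in Myd88−/− replicate 3 to 18.36 in Myd88−/− replicate 2, so both ends of its range were Myd88−/− glands.

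**Figure D3:**
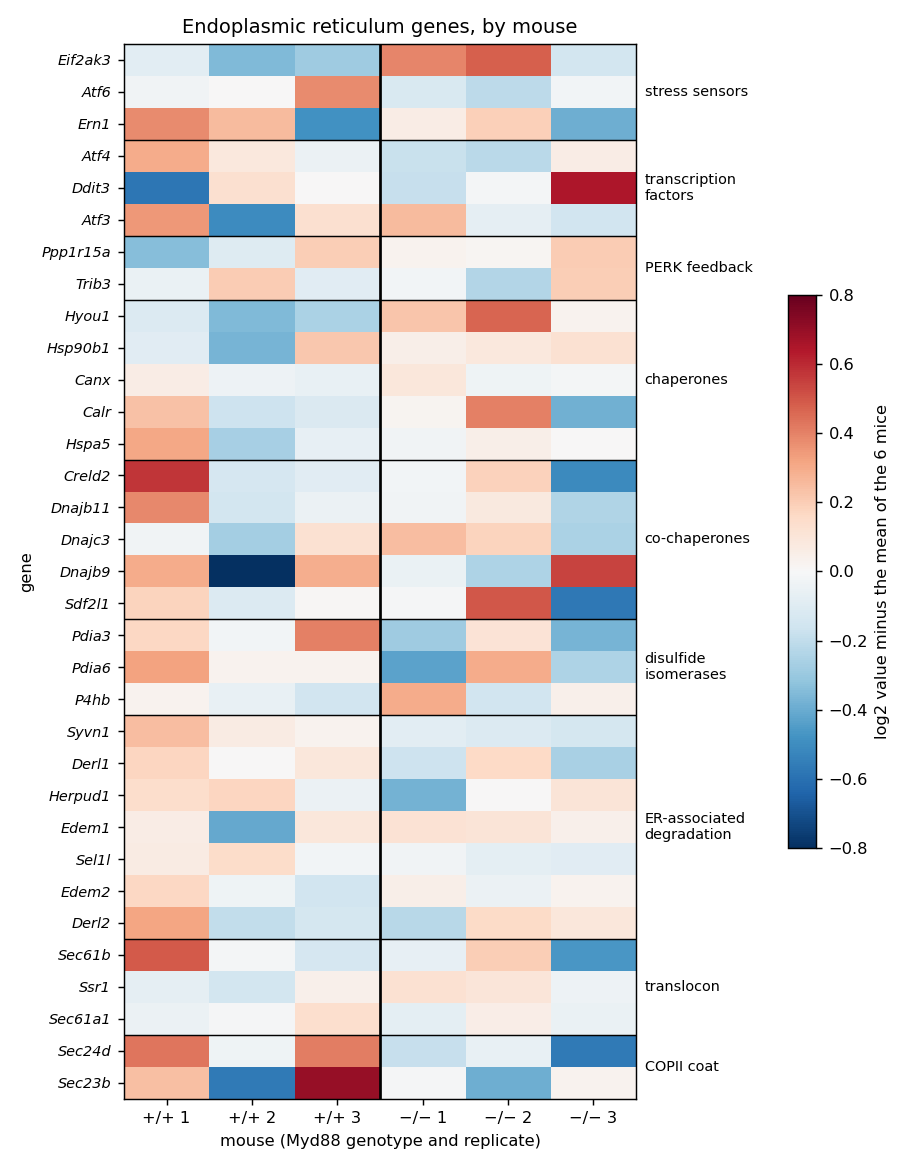
Log2 value minus the gene's mean over the 6 mice (colour scale, from −0.8 to 0.8, with lower or higher values in the end colour) for the 33 genes (rows, grouped by role) in each mouse (columns, 3 Myd88+/+ left of the line and 3 Myd88−/− right of it). Columns differ within a genotype, as for Dnajb9, which is low in Myd88+/+ replicate 2 at 12.10, and for Creld2 and Sdf2l1, which are low in Myd88−/− replicate 3 at 8.90 and 8.84.

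Among co-chaperones and stress-induced luminal proteins, each gene spanned more within the wild-type glands than its genotype difference. Of the 5 measured, 2 were higher and 3 lower, with differences from −0.23 to 0.16 and none past an unadjusted p of 0.05. Dnajb9, a J protein that is a target of XBP1 and restrains IRE1, had the widest range of all 33 genes. It read 13.23, 12.10 and 13.22 in Myd88+/+ and 12.87, 12.68 and 13.46 in Myd88−/− glands, so that the wild-type glands held the lowest value and 2 of the 3 highest. The difference was 0.16 with an SE of 0.33, and −0.22 without Myd88+/+ replicate 2.

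Creld2, a stress-induced luminal protein, read 9.98, 9.28 and 9.32 in Myd88+/+ and 9.39, 9.60 and 8.90 in Myd88−/− glands, a difference of −0.23 with an SE of 0.25. Sdf2l1, which keeps BiP clients soluble, read 9.60, 9.31 and 9.42 against 9.41, 9.91 and 8.84, a difference of −0.05 with an SE of 0.26, which turned to 0.055 under cyclic loess and 0.084 under quantile normalization. In both genes Myd88−/− replicate 3 was lowest of the 6, and Myd88+/+ replicate 1 and Myd88−/− replicate 2 were the 2 highest. Dnajb11, a J protein that brings unfolded chains to BiP, had the same order at its ends, from 9.76 in Myd88+/+ replicate 1 to 9.13 in Myd88−/− replicate 3, and a difference of −0.13 (0.02 after quantile normalization). Dnajc3, a luminal J protein, had a difference of 0.12, with values from 13.68 to 14.20.

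The disulfide isomerases did not share a direction. Pdia3, which works with Calr and Canx on glycoproteins, read 14.76, 14.57 and 14.995 in Myd88+/+ and 14.31, 14.70 and 14.22 in Myd88−/− glands. Myd88−/− replicates 1 and 3 lay below the wild-type glands and replicate 2 among them. The difference was −0.37 with an SE of 0.20, a 1.29-fold lower level (limma adjusted p = 0.57). It was −0.51 without Myd88−/− replicate 2, the fit with the lowest adjusted p (0.314, up to 0.818 under the other alternatives). Pdia6 read 13.00, 12.71 and 12.71 against 12.25, 12.98 and 12.44, with the same Myd88−/− replicate 2 standing with the wild-type glands, a difference of −0.25 with an SE of 0.22 and of −0.46 without that mouse. Both passed an unadjusted p of 0.05 without Myd88−/− replicate 2, when 13.9% of all probe sets did. P4hb, the founding isomerase, had 0.12 and values from 16.38 to 16.83.

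ER-associated degradation, which pulls misfolded chains out through a membrane complex for the proteasome, held 4 genes lower and 3 higher, none past an unadjusted p of 0.05, though Syvn1 passed it without moderation of the variances. The core ligase pair showed small differences with groups that did not overlap. Syvn1, the ubiquitin ligase HRD1, read 9.10, 8.91 and 8.88 in Myd88+/+ and 8.76, 8.74 and 8.71 in Myd88−/− glands, a difference of −0.23 with an SE of 0.16 (limma adjusted p = 0.659). Sel1l, the partner that holds HRD1 in its complex, read 12.57, 12.65 and 12.48 against 12.48, 12.42 and 12.41, a difference of −0.13 with an SE of 0.16, and 0.0057 under quantile normalization. Its lowest wild-type and highest Myd88−/− values were nearly equal. Together with Hyou1 and Sec24d they were the 4 of 33 genes whose groups did not overlap (1 higher, 3 lower), against 15.1% of all probe sets (7.84% higher, 7.25% lower). Leaving out wild-type replicates 1, 2 and 3 in turn gave counts of 8, 6 and 10, and leaving out Myd88−/− replicates 1, 2 and 3 gave 4, 9 and 10, while 23.3% to 32% of all probe sets did not overlap.

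The other degradation genes overlapped between genotypes. Herpud1, a stress-induced adaptor of the ligase complex, read 16.26, 16.30 and 16.07 in Myd88+/+ and 15.74, 16.13 and 16.23 in Myd88−/− glands, a difference of −0.18 with an SE of 0.19. Derl1 and Derl2, which form part of the exit channel, had −0.18 and 0.01, and Derl2 was −0.01 after median centring. Edem1 and Edem2, which trim the glycans of chains marked for degradation, had 0.18 and 0.02, and Edem2 was −0.0054 after median centring. Edem1 read 12.26 in Myd88+/+ replicate 2 and between 12.72 and 12.79 in the other 5 mice, so its difference was 0.016 without that mouse.

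The translocon, through which new chains enter the ER, was steady. Sec61a1, the pore subunit, ran from 15.09 to 15.30 over the 6 mice, with a difference of −0.05 and an SE of 0.16 (0.0049 under cyclic loess, 0.046 under quantile normalization). Ssr1, a subunit of the accompanying TRAP complex, ran from 13.69 to 13.95 with a difference of 0.12. Sec61b, the small tail-anchored subunit, was less steady, from 8.39 in Myd88−/− replicate 3 to 9.34 in Myd88+/+ replicate 1, with a difference of −0.22 and an SE of 0.23.

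The COPII coat genes, which serve export from the ER, differed in how firmly they were placed: Sec24d was lower before adjustment, and Sec23b did not pass. Sec24d, a cargo-binding subunit of the coat, read 10.71, 10.24 and 10.69 in Myd88+/+ and 10.09, 10.22 and 9.71 in Myd88−/− glands. Every Myd88−/− value lay below every wild-type value, though Myd88−/− replicate 2 and Myd88+/+ replicate 2 were nearly equal. The difference was −0.54 with an SE of 0.21 (limma adjusted p = 0.456, from 0.287 to 0.751 over the alternatives). It was −0.39 without Myd88−/− replicate 3 and −0.69 without Myd88+/+ replicate 2. Its unadjusted p missed 0.05 when Myd88−/− replicate 3, Myd88+/+ replicate 1 or Myd88+/+ replicate 3 was left out. That p also missed 0.05 without moderation of the variances and with the replicate number as a block. Sec23b, the subunit that drives the coat's GTPase, read 12.51, 11.70 and 12.96 against 12.25, 11.87 and 12.30, a difference of −0.25 with an SE of 0.30, which was 0.04 without Myd88+/+ replicate 3 and −0.59 without Myd88+/+ replicate 2, where it passed an unadjusted p of 0.05. Replicate 2 was the low mouse of each genotype.

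The 10 measured genes with an ERSE or ERSE-II in the promoter window split into 5 higher and 5 lower, with a median difference of −0.06 and a range from −0.25 (Pdia6) to 0.17 (Hsp90b1). The 19 measured genes whose window held neither had a median of 0.01 and a range from −0.54 to 0.48. Of the 3 genes that passed before adjustment, Sec24d had a UPRE, Eif2ak3 had none of the 4 motifs in its window, and Hyou1 had no window in the table. The split of the 10 was not tested against the 19.

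**Figure D4:**
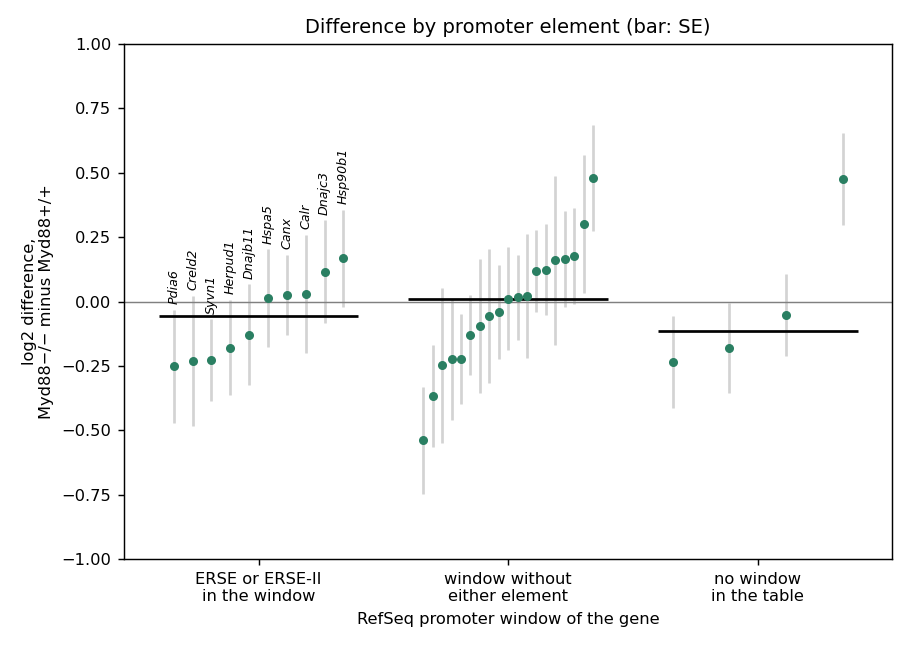
Log2 difference between genotypes (y axis, with SE bars) of 10 genes with an ERSE or ERSE-II in the promoter window, 19 genes whose window holds neither and 4 measured genes with no window (x axis). Black lines mark the medians, −0.06, 0.01 and −0.12, and the classes overlap.

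Other genes of the same machinery, from 7 lists outside the 35, gave a like picture. Of 163 measured genes, 81 were higher and 82 lower, with a median difference of −0.0002, and 12 passed an unadjusted p under 0.05 in limma (4 higher, 8 lower, 7.36%), against 10.1% of all probe sets. None passed after adjustment (0 of 163). Among 14 further regulators of the response, 4 were higher and 10 lower by any amount (median −0.17), of which 1 and 2 passed that p. Mbtps1, the protease that makes the first of the cuts that release ATF6, had −0.61 with an SE of 0.21, and Ern2, the epithelial relative of Ern1, had 0.42 with an SE of 0.16, on values between 5.40 and 6.04, near the background median. The third was Creb3l2, a membrane-bound factor related to ATF6, with −0.56, named after its value was seen. Xbp1, also named after its value was seen, read 17.19, 16.99 and 17.11 in Myd88+/+ and 16.90, 17.19 and 16.83 in Myd88−/− glands, a difference of −0.12 with an SE of 0.17.

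Of 19 targets of PERK and ATF4, 1 was higher at an unadjusted p under 0.05 and 0 lower. It was Ddit4, an inhibitor of the mTOR kinase, with 6.39, 6.34 and 6.19 in Myd88+/+ and 6.85, 6.91 and 6.80 in Myd88−/− glands, a difference of 0.55 with an SE of 0.16 (limma adjusted p = 0.384). All 3 Myd88−/− values lay above the wild-type ones. Sesn2, another stress-induced inhibitor of that kinase, had 0.47, with all 6 values under the background median. The median over this list was 0.01.

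In the COPII and cargo receptor list 4 of 29 genes were lower at that p and 0 higher, against 5.55% and 4.5% of all probe sets. The median over the list was −0.01. Tmed9, a cargo receptor, had −0.63, and Sec16a, which organises the exit sites where Sec24d and Sec23b assemble, had −0.47. The level of Sec16a was 8.51 ± 0.09 (SD, n = 3) in wild-type glands against 8.03 ± 0.07 (SD, n = 3), with no overlap. The other 2, Preb and Sec24b, had −0.55 and −0.51 and were named after their values were seen. After adjustment in limma their p ran from 0.415 to 0.479. Among 33 other folding factors 1 was lower, Calu, a calcium-binding luminal protein, with −0.48, and Fkbp14, a prolyl isomerase for collagen, had −0.45 without passing.

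The remaining pathway lists held few genes past that level. Of 22 further degradation genes 0 passed an unadjusted p of 0.05, the nearest being Selenok with 0.47 and Fam8a1, a cofactor of HRD1, with 0.37. In the list of translocon, signal peptidase and signal recognition genes 1 of 24 was higher, Tram2 with 0.60, ahead of the peptidase subunit Spcs3 with 0.42, and 18 were higher and 6 lower by any amount (median 0.075). In N-glycosylation 1 of 22 passed as higher and 1 as lower, and 7 were higher and 15 lower by any amount (median −0.14). They were Uggt2, of the family that senses misfolded glycoproteins, with 0.56 and the mannosyltransferase gene Alg3 with −0.64.

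Single mice also stood apart within a genotype. The 33 genes had a median SD within a genotype of 0.21, against 0.25 over all probe sets. Myd88+/+ replicate 2 had the lowest value of the 6 mice in 10 of the 33 genes (30.3%), whereas 13.5% of the brighter 50% of probe sets were lowest on that array. These 10 were Hspa5, Hsp90b1, Hyou1, Dnajb9, Dnajc3, Edem1, Eif2ak3, Ssr1, Sec23b and Atf3. Myd88−/− replicate 3 was also lowest in 10 genes, but there 28.2% of the brighter probe sets were lowest too. These were Calr, Creld2, Derl1, Dnajb11, Pdia3, Sdf2l1, Sec24d, Sec61b, Sel1l and Syvn1. Myd88+/+ replicate 1 was highest in 13 genes (39.4%), against 27.8% of the brighter probe sets. Both sets were read off the values and have no test.

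The arrays also differed in the range of their signal. The distance between an array's 10th and 90th percentiles was widest in Myd88+/+ replicate 1 (7.30 log2 units) and narrowest in Myd88−/− replicate 3 (6.83), with 7.10 in Myd88+/+ replicate 2. By genotype it was 7.20 ± 0.10 and 6.97 ± 0.15 (SD, n = 3 each, two-sided exact permutation p = 0.2, where 0.1 is the smallest that 3 against 3 allow). Of the 33 genes 30 lay in the brightest 25% of probe sets, where the median difference of all probe sets was −0.095 and that of the 30 was −0.053. The part of this range in the differences of single genes was not tested beyond the scaling alternatives, under which the difference ran from 0.45 to 0.57 for Hyou1, from 0.46 to 0.59 for Eif2ak3 and from −0.56 to −0.41 for Sec24d.

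**Figure D5:**
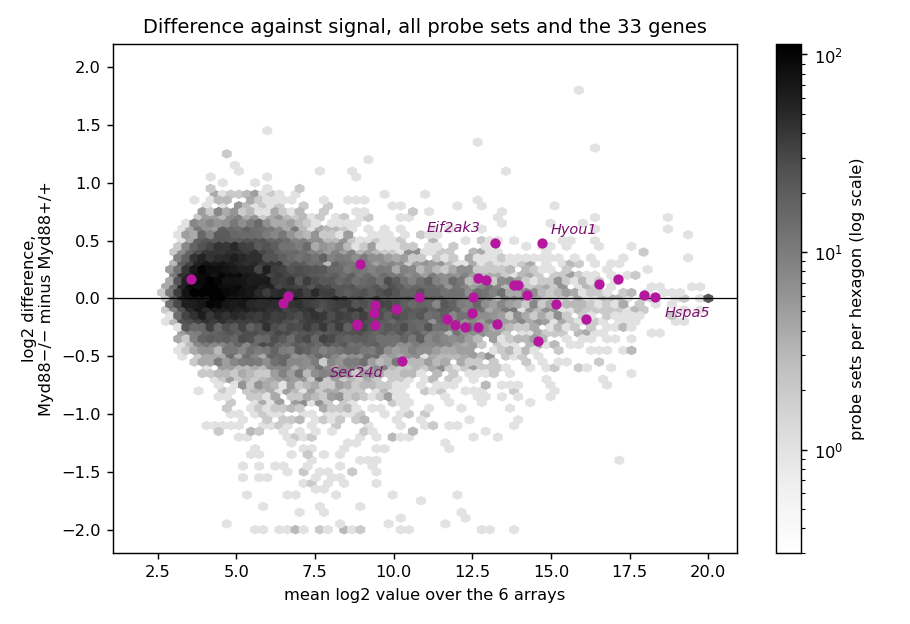
Log2 difference between genotypes (y axis) against the mean log2 value over 6 arrays (x axis) for 22206 probe sets (grey hexagons, darker for more probe sets) and the 33 genes (coloured points). The 21 probe sets more than 2 log2 units apart are drawn at the edge; the coloured points lie within 0.54 of zero, and most are on the bright side.

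Markers of the gland's cell types were read on the same arrays. Those of the secretory cells were very bright, with 4 of 12 acinar genes (among them Mucl2 and Car6) and 2 of 5 granular duct genes (Klk1 and Klk1b5) at the ceiling of 19.93 on every array, and median differences of −0.046 and 0.0044. Genes at the ceiling cannot show a difference, so the ceiling in part sets these medians. One acinar gene, Bpifa2, passed an unadjusted p under 0.05 as lower, with −2.66. Plasma cells, which have an extensive ER, had 5 of 8 measured markers under the background median on all arrays. Their mean level ran from 5.07 to 5.98 in Myd88+/+ and from 4.93 to 5.12 in Myd88−/− glands. Of the 8, 2 were lower at that p, Jchain and Slamf7, against 5.55% of all probe sets. By any amount 3 of the 8 were higher and 5 lower, with a median difference of −0.18. Sdc1, among the 2 brightest, had a difference of 0.14. The brightest, Jchain, ran from 8.02 to 11.65 in Myd88+/+ and from 6.19 to 9.21 in Myd88−/− glands. Their part in the ER genes was not tested.

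Macrophage and fibroblast markers had median differences larger than that of any of the 33 genes. Before adjustment 12 of 12 measured macrophage and monocyte markers, Lyz2 and Ly86 the brightest, passed as lower, with a median of −1.23 and a mean level from 8.03 to 9.17 in Myd88+/+ and from 7.13 to 7.43 in Myd88−/− glands. Among 6 fibroblast markers 5 passed as lower, with a median of −0.80 and a mean level from 11.34 to 12.06 against 10.40 to 11.11, and 2 of 7 myoepithelial markers did, Acta2 and Trp63, with a median of −0.45. None passed limma's adjusted p of 0.05. Striated and excretory duct markers had 3 of 14 lower before adjustment (Ascl3, Foxi1 and Cldn4), against 5.55% of all probe sets. By any amount 4 of the 14 were higher and 10 lower, with a median of −0.25. The 2 brightest of them, Elf5 and Krt18, had differences of 0.48 and 0.0024 and did not pass. Skeletal muscle had 1 of 6 higher before adjustment (Myh4, under background on every array) and 1 lower (Ckm), with 4 of 6 under the background median on all arrays. T cells had 0 of 8 past an unadjusted p of 0.05, with 8 of 8 lower by any amount and a median of −0.44. Endothelium had 0 of 6, with 6 of 6 lower by any amount and a median of −0.28. B cells had 0 of 8 with a median of −0.029, and adipocytes 0 of 5 with a median of 0.095. Cytosolic heat shock and immediate early genes, which answer to handling of the tissue, had 1 of 17 higher (Fos, under background on every array) and 2 lower (Hspb1 and Dusp1), with a median of −0.13. By any amount, 14 of these 17 heat shock and immediate early genes were lower and 3 higher. Bpifa2, Slamf7, Trp63, Ascl3, Foxi1, Cldn4, Myh4, Fos, Hspb1 and Dusp1 were named after their values were seen. The part of these cells in Sec24d, Hyou1 and Eif2ak3 was not tested.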

How the data were processed

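The deposited values are on a log2 scale and came from RMA (robust multi-array averaging) run by the authors with Transcriptome Analysis Console, which the labels and the submitters' processing notes name. The sources used here do not give the software version, the RMA variant or the genome build. RMA subtracts background, puts arrays on 1 scale and merges a set's probes into 1 value, which shrinks differences near background. The deposited table held 28846 probe sets, of which 6640 were controls and were left out. Of the 22206 tested, 19572 had 1 gene symbol in the platform annotation, 0 several and 2634 none. The probe set with the highest mean stood for a gene. Groups came from sample titles. The genotype difference was fitted in limma 3.58.1 (R 4.3.3, lmFit and eBayes without covariates), which was checked on simulated data, and p-values were adjusted by Benjamini-Hochberg over the 22206. Litter relations are not given, and the number of arrays limits the precision. The p-values set each difference against the spread between these mice, which limma moderates over all probe sets. Promoter windows came from RefSeq (GRCm38.p6).

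The 35 genes and the lists were chosen with earlier results of these data known. All 33 measured genes were described, those past an unadjusted p of 0.05, the sensors, Atf4, Atf3, Ddit3 and Hspa5 mouse by mouse at least. Outside them the 2 genes with the smallest p of each pathway list, and genes among the 2 brightest of the cell type lists, were named. Alternatives were 3 further normalizations, 2 filters on dim probe sets, other variance models, the replicate number as a block, the mean of a gene's probe sets and leaving out each mouse.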

Additional observations from a re-analysis of the deposited data

How the results depend on the processing

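With 16 alternatives, no gene of the 33 passed limma's adjusted test under any of them, the smallest adjusted p being 0.287 (Sec24d without Myd88−/− replicate 2). The count of genes at least 2-fold apart stayed at 0. Over all probe sets the adjusted count of 0 became 2 with median centring, 4 with an intensity trend and robust variances, and 0 to 5 with 1 mouse left out. The count of the 33 genes past an unadjusted p of 0.05 was 0 to 3 with 1 mouse left out, at 6.98% to 13.9% of all probe sets. The count of genes without overlap was 4 to 10 in these fits, at 23.3% to 32% of all probe sets. Same-numbered mice did not deviate together (correlations −0.11, −0.15 and −0.02, against −0.12 to 0.20 between differently numbered mice). These correlations cannot decide whether the numbers pair mice, because deviations centred within 3 mice constrain each other. With the replicate number as a block 1 gene passed an unadjusted p of 0.05, Hyou1, in place of 3, at 8.18% of all probe sets. The sign of 14 genes turned under at least 1 alternative, and that of 19 under none. It turned after quantile normalization for Ern1 (0.033), Dnajb11 (0.023), Sdf2l1 (0.084), Sel1l (0.0057) and Sec61a1 (0.046), after cyclic loess for Ern1 (0.015), Sdf2l1 (0.055) and Sec61a1 (0.0049), and after median centring for Atf3 (−0.0008), Hspa5 (−0.0079), Edem2 (−0.0054) and Derl2 (−0.01). With 1 mouse left out the ranges were −0.23 to 0.20 for Atf3, −0.16 to 0.23 for Calr, −0.013 to 0.061 for Canx, −0.083 to 0.17 for Derl2, −0.23 to 0.032 for Dnajb11, −0.22 to 0.35 for Dnajb9, −0.056 to 0.10 for Edem2, −0.36 to 0.077 for Ern1, −0.12 to 0.17 for Hspa5, −0.32 to 0.22 for Sdf2l1, −0.59 to 0.040 for Sec23b, −0.093 to 0.0014 for Sec61a1 and −0.15 to 0.067 for Trib3. The cause of these turns was not tested. Signal near background limits Ppp1r15a, whose level was under the background control median on every array.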
